A study of Mus musculus with 51 samples.

Results

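A set of genes of the endoplasmic reticulum (ER) stress response and the integrated stress response were followed across all mouse liver RNA libraries of a study on the FoxA transcription factors. The genes were chosen by name, as Hspa5, Xbp1, Herpud1, Sdf2l1, Dnajb9, Atf3, Atf4, Ddit3, Trib3 and Asns, and they make up 10 of the 33773 gene symbols measured. These genes and the gene lists used below were chosen with earlier results of these data known. Shares of all genes stand beside their counts for scale and are no test of the sets. All 10 had a value in each of 21 libraries, given as RPKM (reads per length of the gene and per size of the library). The hepatocyte libraries were 4 FoxA triple null, 4 FoxA3 null, 4 FoxA1/A2 Cre alfp and 3 FoxA1/A2 lox. Triple null animals carried floxed FoxA1 and FoxA2 on a FoxA3-/- background, and received at 8 weeks of age an AAV8 virus with Cre behind the Tbg promoter, which is active in hepatocytes. FoxA3 null libraries are taken to be the controls that the design text describes, with the same alleles, FoxA3-/- included, and an AAV with GFP; an age is stated there for the depleted animals only. The lox animals are named for floxed FoxA1 and FoxA2 and the Cre alfp animals for a Cre labelled alfp on the same alleles; age and virus were not given for either group. Whole liver gave the other 6 libraries, 2 labelled HNF4a control and 4 labelled HNF4a null, with HNF4a depleted in the adult. The labels do not say that libraries of a group came from separate animals, so p-values measure the spread between these libraries, which may be technical.

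The RNA of the targeted genes was examined before the stress genes. Foxa3 was at 0.0114 RPKM or lower in the 8 triple null and FoxA3 null libraries and at 19 RPKM or higher in the other hepatocyte libraries. Foxa2 was at 0.243 to 0.47 RPKM in triple null against 11.1 to 20.6 in FoxA3 null, and at 0.991 to 1.26 in Cre alfp against 6.84 to 19.2 in lox. Foxa1 was at 3.04 to 3.63 RPKM in triple null against 6.14 to 10.1 in FoxA3 null, and at 1.14 to 1.34 in Cre alfp against 4.71 to 8.21 in lox. Hnf4a RNA was higher in the libraries labelled null, with 118 to 126 RPKM in the controls and 487 to 545 in the 4 other livers. Those are called the libraries labelled HNF4a null throughout. Gene-level RPKM does not show which exons the reads cover, so it cannot tell whether the gene was deleted. Absolute depth is not known from RPKM. Relative depth, from the step that 1 read makes in low genes, was 2.01 to 4.06 in hepatocytes and 1.00 to 1.10 in liver, with the shallowest library as 1. The summed level of 13 hepatocyte markers was 27400 to 36100 RPKM in triple null and 52600 to 70100 in the other hepatocyte libraries.

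Proteins of the secretory pathway fold in the ER, and hepatocytes, which make most plasma proteins, carry a heavy folding load. When unfolded proteins build up, the sensors IRE1, ATF6 and PERK raise the transcription of chaperones and of genes that clear misfolded proteins; IRE1 does so by splicing the Xbp1 transcript. PERK and other kinases also phosphorylate the translation factor eIF2alpha, which slows protein synthesis but favours translation of ATF4, the transcription factor at the centre of the integrated stress response, whose targets include Ddit3, Trib3 and Asns. Gene-level RPKM shows neither the splicing of Xbp1 nor the amount or phosphorylation of any protein.

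Promoter sequence is shown for the 4 members in which a search found a published stress element, because these elements define the ER and the amino acid branches to which the members belong. Windows of 250 bases before to 50 bases after the start were available for all 10 members from RefSeq (GRCm38.p6), a different build from the mm9 that the submitters' processing notes name, so they were not joined to other data. The 4 lines give the 120 bases before the start, on the gene's strand, 5′ to 3′, with the element in capitals, at chr2:34771970-34772089 (+) for Hspa5, chr8:94386309-94386428 (+) for Herpud1, chr1:191183334-191183453 (-) for Atf3 and chr6:7693210-7693329 (-) for Asns.
Hspa5: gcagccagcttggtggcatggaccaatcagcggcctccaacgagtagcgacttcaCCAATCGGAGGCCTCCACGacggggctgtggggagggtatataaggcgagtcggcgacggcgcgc
Herpud1: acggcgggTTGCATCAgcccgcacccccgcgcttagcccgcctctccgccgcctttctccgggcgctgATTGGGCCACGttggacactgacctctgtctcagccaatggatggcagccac
Atf3: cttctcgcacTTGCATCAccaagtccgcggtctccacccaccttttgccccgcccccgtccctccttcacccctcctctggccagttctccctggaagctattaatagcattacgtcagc
Asns: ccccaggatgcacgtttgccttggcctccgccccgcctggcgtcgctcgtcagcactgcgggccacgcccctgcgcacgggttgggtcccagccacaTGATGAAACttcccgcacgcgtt

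The ER stress response element (CCAAT, then 9 bases of any kind, then CCACG), bound by NF-Y with ATF6, began 65 bases before the Hspa5 start. Over all 32851 windows of the same length, 0.119% held it on either strand. The shorter ER stress response element II (ATTGG, 1 base of any kind, CCACG), which shares CCACG and the reverse complement of CCAAT with the longer form, began 52 bases before the Herpud1 start and occurred in 0.0365% of windows. The C/EBP-ATF element TTGCATCA, a site type bound by ATF4 with C/EBP proteins, was found 112 bases before the Herpud1 start and 110 bases before the Atf3 start, against 0.895% of windows. The Asns element TGATGAAAC lay 23 bases before its start, against 0.247% of windows. Of the 10 members, 0 held the forkhead letters TGTTTAC (3.65% of windows) or the HNF4 letters CAAAGTCCA (0.475%). The Asns letters are named for the Asns promoter itself, so that match was fixed before the search. The other stress elements are also published for genes of these pathways. The shares of windows are thus no measure of how unexpected the matches in members were. A match describes letters in these windows only.

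Across the comparisons the 10 genes did not move as a block: Hspa5, Sdf2l1 and Asns had their highest group mean in FoxA1/A2 lox, while Trib3 had its highest in the triple null. A gene was called where limma gave a Benjamini-Hochberg adjusted p under 0.05 over all genes tested and the means of log2(RPKM + 1) differed by at least 1; folds of low genes are understated on this scale. Trib3 alone was called between triple null and FoxA3 null, 1 of 10 members against 8.11% of all genes in either direction and 4.17% called higher. The members' median difference was 0.50, or 0.71 over the 9 without Asns, beside 0.045 for all genes. Between Cre alfp and lox 4 of 10 were called, Trib3 higher and Asns, Sdf2l1 and Hspa5 lower, against 2.38% of all genes; the members' median was -0.41, or -0.24 over the 9 without Asns, beside 0.017. The triple null differed from lox in 4 of 10 members (13.5% of all genes) and FoxA3 null differed from lox in 4 of 10 (7.19%). Each of these 3 counts against lox includes Asns, which passed the filter on low values (1 RPKM or more in 3 hepatocyte libraries) only through lox and so had to differ; without Asns each count was 3 of the 9 other members. The comparisons share the 3 lox libraries, so their results are not independent. Between triple null and Cre alfp only Dnajb9 was called, 1 of 10 against 10.3%.

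**Figure D1:**
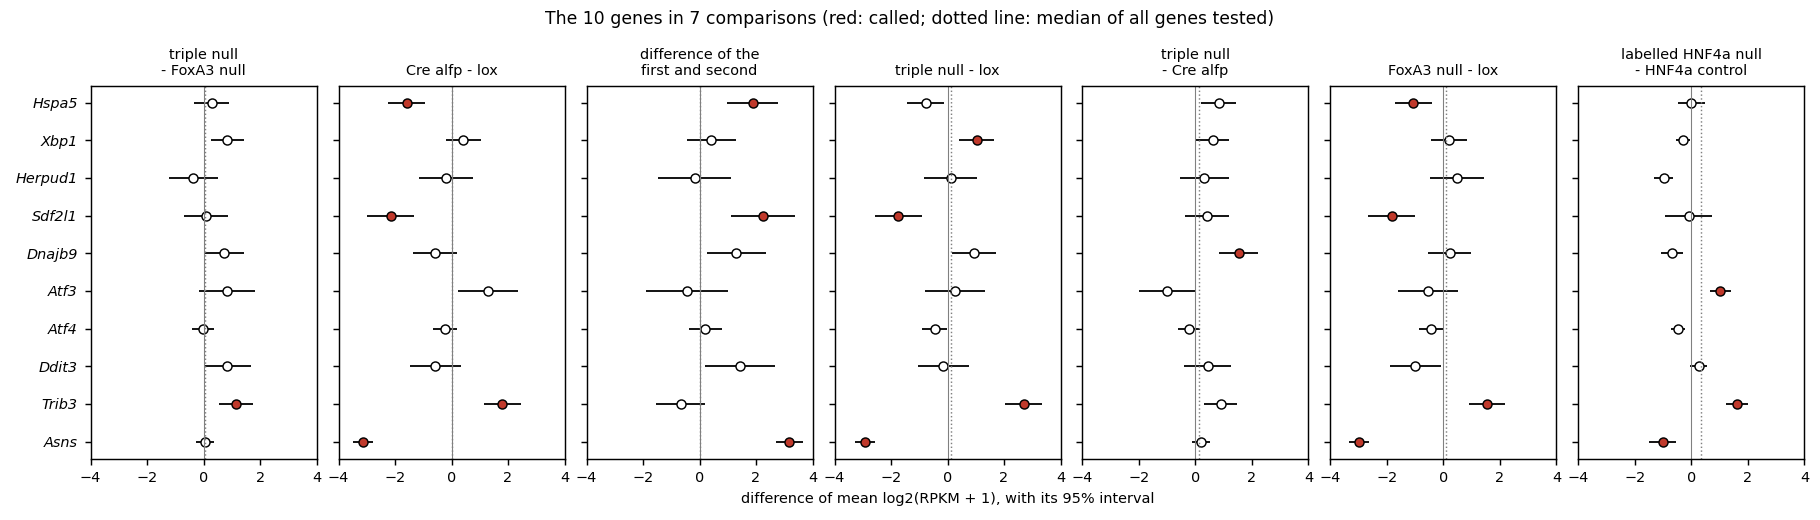
Difference in mean log2(RPKM + 1) for the 10 genes (vertical) in each of 7 comparisons (panels), with the 95% interval from limma; red points were called and the dotted line is the median of all genes tested. Trib3 lies to the right in the panels against FoxA3 null (1.13), against lox (1.80, 2.69 and 1.55) and against HNF4a control (1.62), while Asns lies near -3 in each panel against lox.

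Among the ER members, Hspa5 and Sdf2l1 had their highest means in lox, and both were called lower in Cre alfp and in FoxA3 null; in triple null against lox Sdf2l1 was called and Hspa5 was not. Hspa5 encodes BiP, the main Hsp70 chaperone of the ER lumen and a restraint on the stress sensors. It was at 915, 558 and 288 RPKM in the 3 lox libraries and at 131, 184, 197 and 196 in the 4 Cre alfp libraries. FoxA3 null libraries had 344, 262, 175 and 258 RPKM, and triple null libraries 313, 343, 263 and 322. Every Cre alfp library was below every lox library, whereas the lowest lox library lay inside the range of the FoxA3 null and of the triple null. The mean was 3.31-fold higher in lox than in Cre alfp, a log2 difference of -1.59 (SE 0.31, adjusted p = 0.00821).

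Hspa5 was also lower in FoxA3 null than in lox by a log2 difference of -1.06 (adjusted p = 0.0184), which is -1.16 once the median over all genes, 0.103, was subtracted. This call did not hold without lox replicate 1 (-0.66, adjusted p = 0.103), without lox replicate 2 (adjusted p = 0.0619), without FoxA3 null replicate 3 (-0.88), with no filter on low values (adjusted p = 0.0514), with quantile normalization (-0.99) or with only these 2 groups in the fit (adjusted p = 0.0719). The triple null was not called against lox (-0.77, adjusted p = 0.0583) but was without lox replicate 3 (-1.21, adjusted p = 0.0028). Leaving out 1 library gave -1.21 to -0.38 for this difference. Against FoxA3 null the triple null value was 0.29 (95% interval -0.33 to 0.90, adjusted p = 0.481). With only lox and Cre alfp in the fit, the adjusted p of Hspa5 between them was 0.06.

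Sdf2l1, an ER protein that works with Hsp40 co-chaperones of BiP and is a sensitive marker of ER stress, had the same order. Its level was 107, 123 and 35.4 RPKM in lox, and 9.96, 26.8, 20.1 and 14.3 in Cre alfp. FoxA3 null had 21.0, 16.5, 30.1 and 19.3 RPKM, and triple null 23.8, 29.1, 17.1 and 21.9. All 3 lox libraries were above all other hepatocyte libraries, with lox replicate 3 standing close to the highest of them. Such a pattern, lox above every other hepatocyte library, was seen in 1.76% of all genes tested. Asns had it too, but passed the filter only through lox, which fixed its order. The difference from lox was -2.15 in Cre alfp (SE 0.39, adjusted p = 0.00499), -1.83 in FoxA3 null (adjusted p = 0.00403; -1.93 relative to all genes) and -1.74 in triple null (adjusted p = 0.0028; -1.87 relative to all genes, whose median was 0.132). In a fit of lox and Cre alfp alone the adjusted p was 0.0579.

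Dnajb9, or ERdj4, an Hsp40 co-chaperone that loads BiP onto the IRE1 sensor, followed another order, with its highest mean in the triple null. It was at 54.5, 65.1, 43.1 and 40.5 RPKM in triple null and at 14, 12.9, 17.1 and 24.9 in Cre alfp, with no overlap. FoxA3 null libraries ranged from 15.4 to 48.2 RPKM and lox libraries from 17.8 to 43.2, each overlapping both of those groups. The triple null exceeded Cre alfp 2.95-fold in mean RPKM, a log2 difference of 1.53 (SE 0.33, adjusted p = 0.00234; 1.4 relative to all genes, whose median was 0.125). Against FoxA3 null the difference was 0.71 (adjusted p = 0.121). Against lox it was 0.94 (adjusted p = 0.0471), under the minimum difference, and 1.31 without lox replicate 1 (adjusted p = 0.014), where it was called.

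Xbp1 encodes the transcription factor made from the IRE1-spliced transcript, and its total RNA had its highest mean in the triple null. The 4 triple null libraries had 182, 170, 381 and 248 RPKM, and the FoxA3 null libraries 120, 167, 118 and 120. The groups did not overlap, though triple null replicate 2 and FoxA3 null replicate 2 nearly met; for the members, 2 of 10 (Xbp1 and Trib3) did not overlap in this comparison, against 27.9% of all genes. The difference was 0.84 (SE 0.27, adjusted p = 0.0325), under the minimum for a call. The lox libraries had 81.6, 125 and 142 RPKM, and the triple null was called higher by 1.03 (SE 0.30, adjusted p = 0.0124), or 0.90 relative to all genes. That call was near the minimum difference and was lost without triple null replicate 3 (0.79), without lox replicate 1 (0.80), with quantile normalization (1.00) and with median scaling (0.88).

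Herpud1, a membrane protein of ER-associated degradation, varied widely within groups and was called in no hepatocyte comparison. FoxA3 null libraries alone spanned 124 to 447 RPKM, while lox had 116 to 330, triple null 147 to 322 and Cre alfp 129 to 279. The 95% interval of triple null minus FoxA3 null ran from -1.24 to 0.50, which includes both no change and a decrease past the minimum difference. Between replicates, Herpud1 moved with Dnajb9: the deviations of the 21 libraries from their group means had a Pearson r of 0.84.

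**Figure D2:**
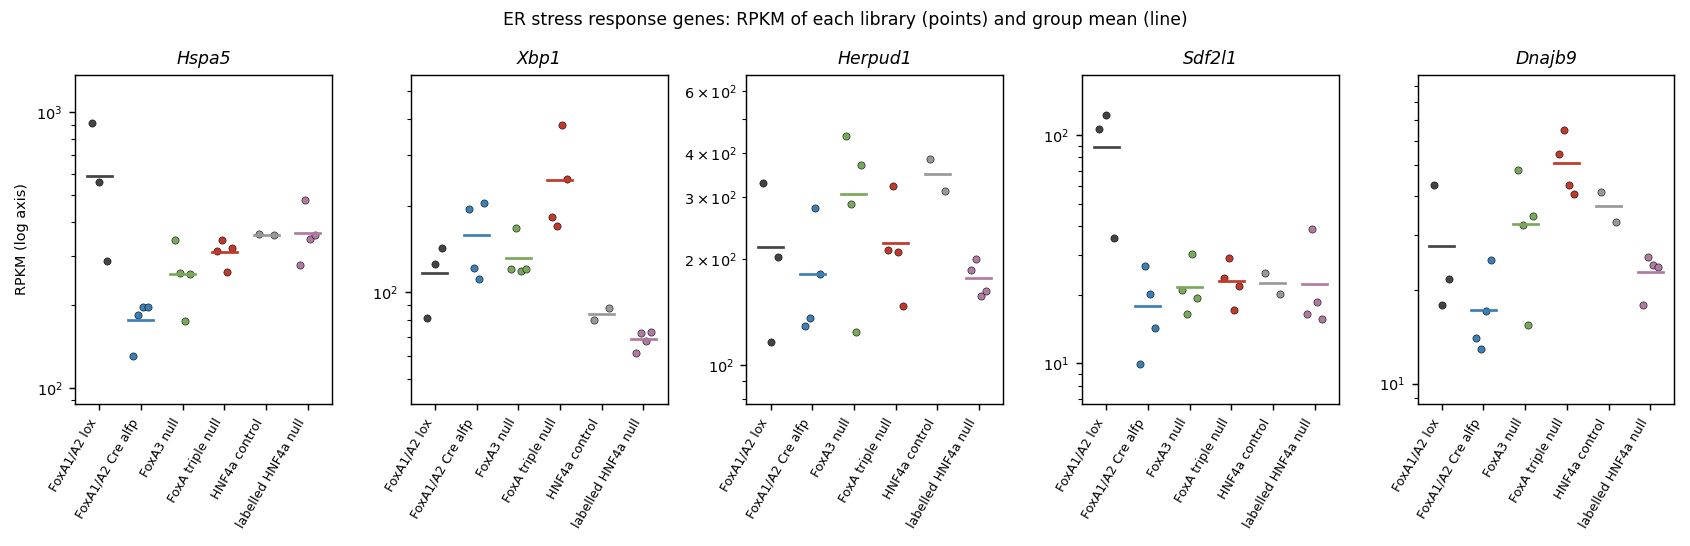
RPKM (vertical, log axis) of Hspa5, Xbp1, Herpud1, Sdf2l1 and Dnajb9 in each of 21 libraries, by group (horizontal), with the group mean as a line. The lox points of Hspa5 and Sdf2l1 spread from 288 to 915 and from 35.4 to 123 RPKM, and the triple null holds the highest points of Xbp1 and Dnajb9.

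Other genes of the ER pathway were counted from lists, which were also chosen with earlier results of these data known. Of 19 ER chaperone and folding genes, Hspa5, Sdf2l1 and Dnajb9 among them, 9 fell in Cre alfp against lox (1.10% of all genes fell), 0 rose, and the list's median was -0.97 beside 0.017 for all genes. All 19 values lay below 0. Creld2, an ER-stress-induced disulfide isomerase relative, was at 196, 138 and 36.7 RPKM in lox and 8.99 to 18.0 in Cre alfp, a difference of -2.87 (SE 0.45, adjusted p = 0.00162). Hyou1, the large Hsp70-like exchange factor of BiP, was at 76.0, 52.9 and 31.1 RPKM in lox and 11.5 to 16.5 in Cre alfp (-1.73, SE 0.32, adjusted p = 0.00536). In both genes the lox libraries lay above every Cre alfp library, and replicate 3 was the lowest of them. The count of lowered chaperones was 7 without lox replicate 1, 13 without lox replicate 3 and 5 when only lox and Cre alfp were fitted.

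The same list showed 6 lower genes in FoxA3 null against lox (median -0.74) and 4 lower in triple null against lox (median -0.74), where 7.19% and 13.5% of all genes were called in either direction and the medians of all genes were 0.103 and 0.132; both share the lox libraries with the comparison above. Against Cre alfp, 3 of 19 were called higher in the triple null (median 0.41 beside 0.125 for all genes). In that comparison 10.3% of all genes were called in either direction. Against FoxA3 null, 0 of 19 were called in the triple null by limma, 7 had an unadjusted p under 0.05, and the median was 0.08. At an adjusted p under 0.05 but less than the minimum difference, Manf and P4hb were higher (0.67 and 0.72) and Pdia6 and Ppib were lower (-0.69 and -0.45); these 4 are named after their values were seen. Leaving out the 3 members, the 16 other chaperones summed to 4980, 5010 and 3450 RPKM in the lox libraries. Their sum was 2330 to 3010 in Cre alfp, against 2550 to 2850 in FoxA3 null and 2970 to 3420 in triple null. Markers of hepatocytes did not separate lox from Cre alfp in this way: their sums were 61700 to 67200 and 52600 to 66300 RPKM. By limma 0 of 13 were called, with 3 at an unadjusted p under 0.05. Of 8 cholangiocyte markers 2 were tested, and 1 was called lower in Cre alfp against lox (median -0.84). Against lox, 1 of 2 was also called lower in FoxA3 null (median -0.96) and in triple null (median -1.18). Between Cre alfp and lox, 0 tested macrophage, endothelial or stellate cell markers were called. The part of cell types in the chaperone values was not tested.

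Of 14 ER degradation genes, 3 fell in Cre alfp against lox beside 1.10% of all genes, Derl3 (-2.77, adjusted p = 0.0346) and the ubiquitin ligase Syvn1 (-1.76, adjusted p = 0.0293) among them. Between triple null and FoxA3 null 0 were called by limma (3 at an unadjusted p under 0.05), beside 8.11% of all genes. Syvn1 was at 199, 101 and 32.3 RPKM in lox and at 17.3 to 31.1 in Cre alfp, so that lox replicate 3 stood just above the Cre alfp libraries. Of 11 tested sensors and regulators, Ern1, which encodes IRE1, was the only one called in the triple null against FoxA3 null, 1 of 11 beside the same 8.11%. It was at 2.03, 2.25, 2.69 and 1.91 RPKM in triple null and 12.5, 6.75, 5.66 and 7.62 in FoxA3 null, without overlap and lower by a log2 difference of -1.46 (SE 0.17, adjusted p = 2.22e-05). FoxA3 null held the highest hepatocyte mean of Ern1, 8.14 RPKM, beside 4.97 in lox, 3.04 in Cre alfp and 2.22 in triple null. Against lox and against Cre alfp, 0 of the 11 sensors and regulators were called lower in the triple null. The mean level of Xbp1, whose RNA IRE1 splices, was 245 RPKM in triple null against 131 in FoxA3 null.

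Heat shock genes that answer unfolded protein outside the ER were listed too, mostly cytosolic but with the mitochondrial Hspd1 and Hspe1. Of these, 3 of 12 fell in Cre alfp against lox, where 1.10% of all genes fell (median -0.50 beside 0.017), with Hspa8 at -3.04 (adjusted p = 0.00698). The lower values in Cre alfp were thus not limited to genes of the ER. The summed level of the 12 was 991 to 2190 RPKM in lox and 615 to 877 in Cre alfp.

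**Figure D3:**
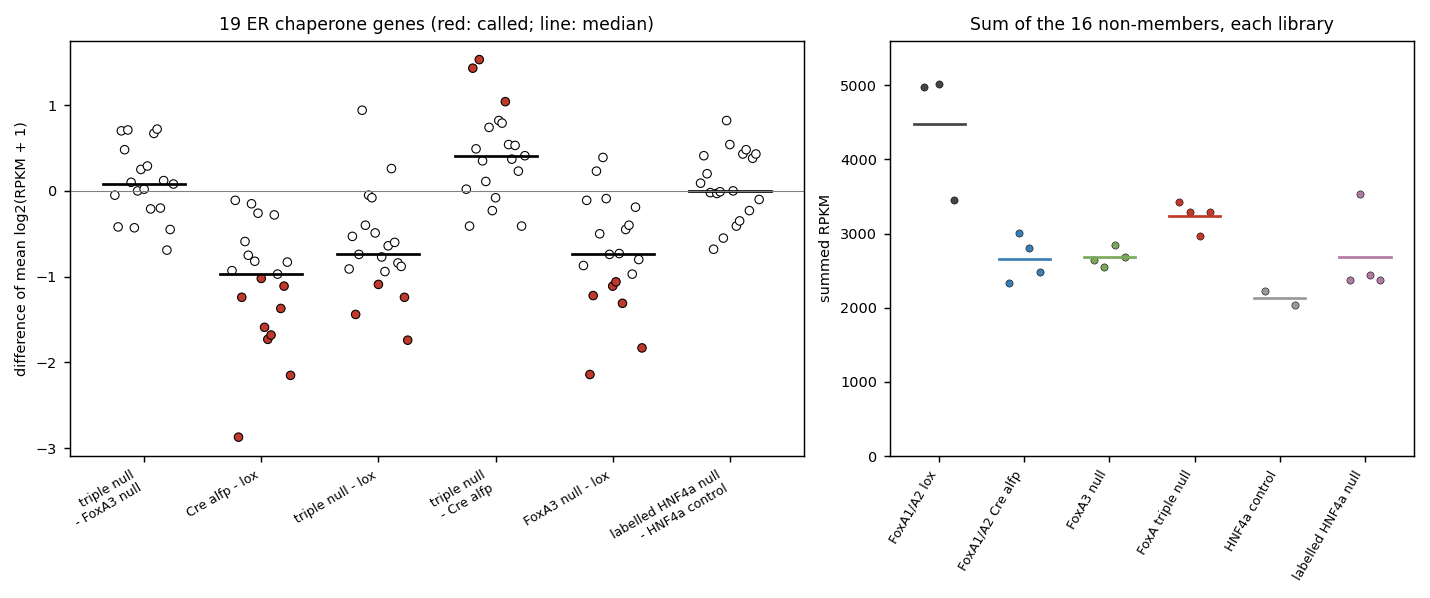
Left, differences in mean log2(RPKM + 1) of 19 ER chaperone genes (points; red where called, line at the median) in 6 comparisons. Right, summed RPKM of the 16 that are not members, per library with the group mean as a line; lox replicates 1 and 2 stand at 4980 and 5010, lox replicate 3 at 3450.

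In the integrated stress response, Atf4 was not called in hepatocytes, while Trib3 was called higher in the triple null than in FoxA3 null and Asns was high in lox alone. Atf4, whose protein is controlled mainly by translation, had 71.1 to 95.6 RPKM in triple null libraries and 63.3 to 115 in their FoxA3 null controls, beside 81.7 to 125 in Cre alfp and 98.1 to 132 in lox. The groups overlapped except triple null and lox, and limma called Atf4 in 0 hepatocyte comparisons; triple null minus FoxA3 null was -0.03 (95% interval -0.43 to 0.36). At an unadjusted p under 0.05 it stood out in 2 of the 6 hepatocyte comparisons, against lox in triple null (-0.46, adjusted p = 0.0776) and in FoxA3 null (-0.43, adjusted p = 0.108).

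Ddit3 encodes CHOP, a transcription factor tied to cell death under lasting ER stress. Triple null libraries were at 17.1, 24.5, 11.2 and 12.2 RPKM and FoxA3 null libraries at 7.27, 7.58, 11.7 and 7.14. Only FoxA3 null replicate 3 reached the triple null range, and the difference of 0.84 had an adjusted p of 0.123. One lox library, replicate 1, was at 42.0 RPKM against 12.8 and 9.47 in the others, and Cre alfp ranged from 7.95 to 19.4. Without lox replicate 3, Ddit3 was called lower in FoxA3 null than in lox (-1.40, adjusted p = 0.0273), a call not made with all 3 (-0.99, adjusted p = 0.0819). This difference was -1.40 to -0.38 when 1 library was left out.

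Atf3, a transcription factor induced by ATF4 and by many other stresses, was at 45.6, 31.2, 11.5 and 60.2 RPKM in triple null and 11, 26.8, 13.6 and 22.8 in FoxA3 null. Triple null replicate 3 stood among the FoxA3 null libraries and the other 3 stood above them. The difference was 0.83 (SE 0.46, adjusted p = 0.192), and without triple null replicate 3 it was 1.29 and called (adjusted p = 0.0243). Its range without 1 library was 0.53 to 1.29. Cre alfp held the highest levels, 46.4 to 94.0 RPKM, above the 14 to 41.1 of lox without overlap, yet the difference of 1.28 had an adjusted p of 0.17. In liver Atf3 was at 0.495 to 2.52 RPKM. The summed level of 13 immediate early genes, which respond within minutes to handling or signals, was 1060 to 3270 RPKM in hepatocytes and 49.2 to 83.4 in liver; the part of this in the level of Atf3 was not tested.

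Trib3, a pseudokinase induced by ATF4 and CHOP that restrains AKT, rose in triple null hepatocytes against FoxA3 null and in each group against lox. It was at 1.92, 3.23 and 1.45 RPKM in lox and at 12.9, 5.11, 13.7 and 10.1 in Cre alfp. FoxA3 null libraries had 8.08, 9.29, 7.22 and 8.06 RPKM, and triple null libraries 21.9, 16.1, 28.3 and 13.1. All lox libraries were below every other hepatocyte library, a pattern of 1 member in 10 and of 4.50% of all genes, and all triple null libraries were above all FoxA3 null libraries. The lowest triple null library, replicate 4, stood just under the highest Cre alfp library.

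The triple null mean of Trib3 was 2.43-fold the FoxA3 null mean, a log2 difference of 1.13 (SE 0.28, adjusted p = 0.007). Without triple null replicate 3 it was 0.95 (adjusted p = 0.0215), short of the minimum difference. Against lox the difference was 1.80 in Cre alfp (SE 0.30, adjusted p = 0.00282), 1.55 in FoxA3 null (adjusted p = 0.00232; 1.45 relative to all genes) and 2.69 in triple null (adjusted p = 9.54e-06; 2.55 relative to all genes). Triple null minus Cre alfp was 0.89 (adjusted p = 0.0198), under the minimum, and was called without triple null replicate 4 (1.06), Cre alfp replicate 1 (1.00) or Cre alfp replicate 3 (1.03). These libraries hold bulk RNA, in which fewer cells of a type and less RNA per cell cannot be told apart.

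Cell type markers also differed in the triple null libraries in which Trib3 was high. Of 8 neutrophil and monocyte markers, the summed level was 9.55 to 111 RPKM in triple null and 0.834 to 2.02 in FoxA3 null. In every triple null library 5 of the 8, Csf3r, Elane, Ly6c2, Ly6g and Mpo, were under 1 RPKM. Retnlg reached 1 RPKM in 1 hepatocyte library, which was a triple null library. The 2 of these markers that were tested, S100a8 and S100a9, were both called higher, with a median difference of 3.08; S100a9 passed the filter on low values only through the triple null, so it had to differ. Of 10 sinusoidal endothelial markers, the sum was 10.0 to 22 RPKM in triple null and 35.9 to 56.3 in FoxA3 null. Of 13 hepatocyte markers, 8 were called lower, beside 8.11% of all genes called in either direction. The part of these shifts in the level of Trib3 was not tested.

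Asns, the enzyme that makes asparagine and a standard readout of ATF4, was high in lox and under 1 RPKM in every other hepatocyte library. It was at 8.96, 8.71 and 11 RPKM in the lox libraries. The Cre alfp libraries had 0.0819, 0.297, 0.0604 and 0.381 RPKM, the FoxA3 null libraries 0.114, 0.28, 0.461 and 0.523, and the triple null libraries 0.203, 0.75, 0.24 and 0.384. The lowest lox library was thus far above the highest of the other 12. Liver was between, at 3.88 and 3.76 RPKM in the HNF4a controls. Lox exceeded Cre alfp 46.5-fold, FoxA3 null 27.7-fold and triple null 24.2-fold in mean RPKM. The log2 differences on the log2(RPKM + 1) scale were -3.13 (SE 0.16, adjusted p = 1.07e-07), -2.98 (adjusted p = 1.61e-08; -3.08 relative to all genes) and -2.93 (adjusted p = 6.56e-09; -3.06 relative to all genes).

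Asns passed the filter on low values only through the 3 lox libraries, so it had to differ from them, and it was not tested when any lox library was left out. The filter does not change the values of a gene, so with no filter its difference between Cre alfp and lox could not change. Only the limma adjusted p did (1.37e-06), and this is no check of the difference. The groups other than lox include FoxA3 null, in which Foxa1 and Foxa2 were not deleted. Age, strain background and virus are not given for lox, so genotype and any such difference cannot be told apart. Triple null minus FoxA3 null was 0.05 (95% interval -0.28 to 0.37), with both groups under 1 RPKM.

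**Figure D4:**
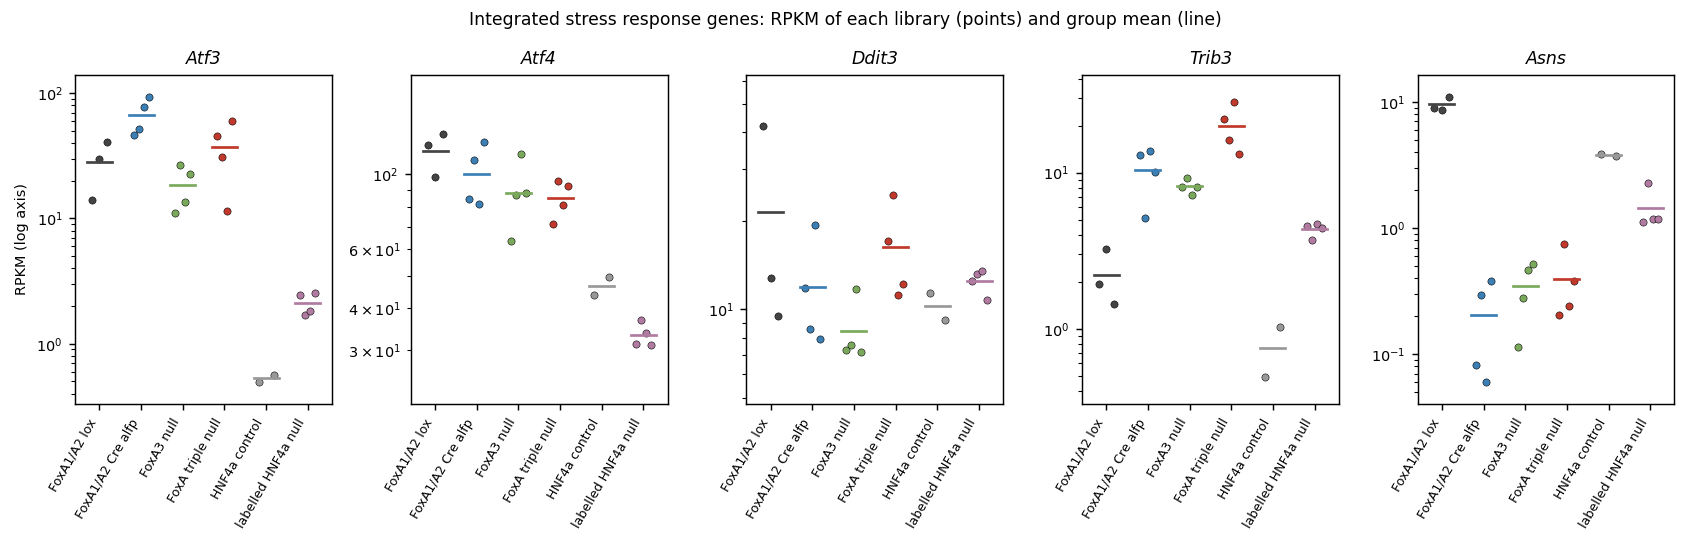
RPKM (vertical, log axis) of Atf3, Atf4, Ddit3, Trib3 and Asns in each of 21 libraries, by group (horizontal), with the group mean as a line. Asns stands at 8.71 to 11 RPKM in lox and at 0.75 or lower in the other hepatocytes, and among hepatocytes Trib3 was lowest in lox, at 3.23 or lower.

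The list of integrated stress genes had calls in both directions. Of 19 tested regulators and targets, 3 rose in triple null against FoxA3 null, 2 fell and 14 were not called, with a median of 0.03 beside 0.045 for all genes; 8.11% of all genes were called in either direction and 4.17% higher. The calls include Nupr1 and Fgf21, whose passing of the filter fixed that they differed, and without them 2 rose and 1 fell. Besides Trib3, the risen genes were the stress coregulator Nupr1 and Sesn2, an ATF4 target that restrains mTORC1. Nupr1 was at 3.28, 3.01, 2.40 and 2.54 RPKM in triple null and 0.332 to 0.739 in FoxA3 null (1.37, SE 0.18, adjusted p = 5.02e-05); it passed the filter on low values only through the triple null, so it had to differ. Sesn2 was at 8.66, 10.2, 7.74 and 6.79 RPKM in triple null and 3.23 to 4.16 in FoxA3 null (1.02, SE 0.18, adjusted p = 0.000925). Both were without overlap. The fallen genes were the hepatokine Fgf21 (-1.61, adjusted p = 0.00153) and Chac1, which degrades glutathione (-1.10, adjusted p = 0.0249), both known ATF4 targets. Fgf21 passed the filter only through FoxA3 null, so it too had to differ; Trib3, Sesn2 and Chac1 did not pass through 1 group alone.

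Of 9 tested amino acid supply genes, 1 was lower in triple null against FoxA3 null, the transporter Slc38a2 (-1.18, adjusted p = 0.00951), a share near the 8.11% of all genes called. In Cre alfp against lox 1 was lower (1.10% of all genes fell), Asns itself, which had to differ as said above; Pck2 also passed the filter only through lox, so no median of the list is given. Of 12 aminoacyl-tRNA synthetases, many of which ATF4 induces, 0 were called by limma in either of these comparisons (6 and 5 at an unadjusted p under 0.05), with medians of -0.25 and -0.30.

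Whether deletion of FoxA1 and FoxA2 acted alike without and with FoxA3 was examined as the difference between triple null minus FoxA3 null and Cre alfp minus lox, which share no library. It passed in 3 of 10 members, all with values above 0, against 3.28% of all genes called higher and 6.82% called in either direction. Asns had a value of 3.18 (SE 0.22, adjusted p = 5.06e-07), but it passed the filter on low values only through lox, so it had to differ and is no support for the count. The value was 2.24 for Sdf2l1 (SE 0.53, adjusted p = 0.0127) and 1.88 for Hspa5 (SE 0.42, adjusted p = 0.00953). In these 3 genes the level with deletion was lower where FoxA3 was intact, by the differences given above, and the differences without FoxA3 were 0.05, 0.08 and 0.29. Lox held the highest of the 4 means: Hspa5 was 587 ± 314 RPKM (SD, n = 3) in lox and 310, 260 and 177 in triple null, FoxA3 null and Cre alfp. Dnajb9 (1.30, adjusted p = 0.0892) and Ddit3 (1.42, adjusted p = 0.112) were not called. Without lox replicate 3 Ddit3 was called (1.83, adjusted p = 0.0467), and its range without 1 library was 0.81 to 1.83. Trib3 was -0.67 (95% interval -1.54 to 0.21, adjusted p = 0.295). Of the 19 ER chaperones, 8 were called higher in this test, Creld2 (3.57) and Manf (2.36) among them, and of 12 heat shock genes outside the ER 5 were. The deletions also differ in Cre, and virus and Cre cannot be told apart from FoxA3.

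In whole liver the libraries labelled HNF4a null were compared with the controls, in a fit of their own. Of the 10 members, 3 were called, Trib3 and Atf3 higher and Asns lower, against 14.5% of all genes. The median of all genes was 0.337, and values relative to it follow the differences of the called members. Trib3 and Atf3 passed the liver filter (1 RPKM or more in 2 libraries) only through the libraries labelled HNF4a null, so both had to differ, and the count of 3 is not read against that share. Trib3 was at 4.56, 3.70, 4.68 and 4.43 RPKM in those labelled HNF4a null and at 0.494 and 1.02 in the controls, with no overlap (1.62, SE 0.16, adjusted p = 0.000363; relative 1.28). Asns was at 1.11, 2.28, 1.17 and 1.18 RPKM against 3.88 and 3.76 (-1.01, SE 0.20, adjusted p = 0.00653; relative -1.35). Atf3 was at 2.43, 1.71, 1.83 and 2.52 RPKM against 0.495 and 0.566 (1.02, SE 0.15, adjusted p = 0.00223; relative 0.68). For all 3 genes every library labelled HNF4a null stood on the same side of both controls, though Trib3 and Atf3 had to differ, as said above. Of the 8 other members, Xbp1, Herpud1, Dnajb9, Atf4 and Asns did not overlap, against 67.0% of all genes.

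Asns and Atf3 were close to the minimum difference. Libraries are named here by their barcodes. Asns missed the minimum without the control ACTGATA (-0.99). It also missed it without the labelled null library GAGTGGA (-0.95), the labelled null library GTGGCCA (-0.96) or the labelled null library TAGCTTA (-0.97). Atf3 missed it without the same control (0.99), without the first or the last of these labelled null libraries (0.97 and 0.96), with quantile normalization (0.71) and with median scaling (0.87). Herpud1 was at 186, 200, 157 and 162 RPKM against 385 and 312, clearly apart, with a difference of -0.98 (adjusted p = 0.00192; relative -1.31). It was called with median scaling (-1.29) and without control ATTCCTA (-1.13) or the labelled null libraries GAGTGGA (-1.01) or GGCTAC (-1.04). Dnajb9 (-0.68, adjusted p = 0.0133; relative -1.02) and Atf4 (-0.48, adjusted p = 0.0099; relative -0.81) were also lower at less than the minimum difference. Hspa5 was at 280 to 479 RPKM against 362 and 358, a difference of 0.00 (95% interval -0.49 to 0.48), or -0.32 with median scaling.

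Of 19 ER chaperones 0 were called in liver by limma, 6 had an unadjusted p under 0.05, and the list's median relative to all genes was -0.34. Of 14 ER degradation genes 2 rose, Edem2 (1.24) and Derl3 (1.08), which relative to all genes were at 0.90 and 0.74. Derl3 had to differ, as said below, so the count is not read against the 14.5% of all genes called in either direction. Among 18 integrated stress genes 3 rose, Trib3 and Atf3, which had to differ as said above, and Gdf15, a circulating stress cytokine (1.56, adjusted p = 0.043; relative 1.23). Of 11 tested amino acid supply genes, Psat1 and Pck2 rose (1.49 and 1.25, relative 1.16 and 0.91). Shmt2 fell (-2.40, relative -2.74), as did Asns (-1.01). Derl3 and Psat1 passed the filter only through the libraries labelled HNF4a null, so they had to differ. Whole liver holds other cells: the summed level of 8 cholangiocyte markers was 14.8 to 15.0 RPKM in the controls and 125 to 223 in those labelled HNF4a null, and that of 13 hepatocyte markers was 38600 to 39300 and 21200 to 27800. Of 12 tested immediate early genes 3 rose, Egr1 (1.57), Btg2 (1.28) and Ier3 (1.13). Egr1 and Ier3 had to differ, since they passed the filter only through the libraries labelled HNF4a null. The 2 tested neutrophil and monocyte markers also rose and also had to differ. Of 11 tested heat shock genes outside the ER 4 fell, with a median of -0.90 relative to all genes, of which 14.5% were called in either direction. The part of these shifts in the members' values was not tested.

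The authors' own comparisons were deposited for 6 contrasts. In the authors' deposited table of triple null against FoxA3 null, Trib3 had a log2 fold change of 1.23 (adjusted p = 1.45e-07), Xbp1 0.91 (adjusted p = 0.000342) and Ddit3 0.74 (adjusted p = 0.0152). In the authors' deposited table of triple null against animals without deletion, Asns had -5.09 and Trib3 2.92, with the sign turned so that positive means higher in triple null. The same deposited table of the authors gives Hspa5 -1.10 (adjusted p = 0.00182) and Atf4 -0.71 (adjusted p = 1.07e-06), neither of which limma called between triple null and lox here. A call here also needed a log2 difference of at least 1, which the authors' value of Atf4 does not reach. The control of that table is named only as without deletion, so it may not be the lox libraries alone. The authors' deposited tables of triple null against FoxA3 null and against Cre alfp list 9 of the 10 members, without Asns. For the libraries labelled HNF4a null, the authors' deposited table gives Asns -2.76, Herpud1 -1.51, Dnajb9 -1.11 and Trib3 2.58.

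The authors' deposited tables also set earlier stages against adult hepatocytes; the libraries behind them were not analysed here. Hepatoblasts, the fetal liver progenitors, had lower values in 9 of 10 members at an adjusted p under 0.05 in the authors' deposited table, from -0.99 for Atf4 to -4.79 for Atf3, with Dnajb9 at -3.67 and Herpud1 at -3.51; in the same table from the authors 37.9% of 13473 genes were lower at that threshold. Asns was the exception there, at 0.29 (adjusted p = 0.151). In newborn against adult the authors' deposited table gives Asns 1.72 (adjusted p = 4.34e-41) and Atf3 2.17 (adjusted p = 0.000199) as higher. The same deposited table from the authors gives Sdf2l1 -3.98 (adjusted p = 4.3e-08), Xbp1 -0.99 and Hspa5 -0.99 as lower, and Trib3 -0.56 (adjusted p = 0.227).

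Variation between libraries of the same group was also compared between genes. Over the deviations of 21 libraries from their group means, among 9081 genes, those most like Hspa5 were Hyou1 (Pearson r = 0.91), Syvn1 (0.86), Creld2 (0.84), Pdia4 (0.83) and Atp2a2, the ER calcium pump (0.83). Hspa5 itself correlated with Dnajb9 (0.71) and Sdf2l1 (0.61). Xbp1 did not follow them, with -0.56 to Sdf2l1 and -0.70 to Ddit3. Atf4 and Asns had 0.74. Those most like Asns were Gm7332, Ifitm2, Nsfl1c, Mbd2 and Gm3531 (0.81 to 0.79), for a gene at under 1 RPKM in 12 of the 21 libraries. The libraries differ in relative depth, and the spread of the 3 lox libraries enters these values.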

How the data were processed

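RNA was sequenced from hepatocytes and liver, and the authors deposited 1 matrix of RPKM values; the submitters' processing notes name SAMtools, Cufflinks 2.2.1, DESeq2 and mm9 without their roles, and strand handling is not given in the sources used here. Of the matrix columns, 9 matched no sample and were not used. HNF4a columns carry barcodes in place of numbers. Members and lists were chosen with earlier results of these data known. The named genes are the 10 members, the targeted genes, the largest called genes of each pathway list and the 5 genes most like Hspa5 and Asns. Besides these, P4hb and Pdia6 were named after their values were seen, and neutrophil and monocyte markers are also named. Differences were tested with limma 3.58.1 (R 4.3.3, trended empirical Bayes) on log2(RPKM + 1), over 11500 genes at 1 RPKM or more in at least 3 of 15 hepatocyte libraries in 1 fit, and over 12434 genes at 1 RPKM or more in at least 2 of 6 liver libraries. The fit was tested on simulated data. Log2 fold changes and p-values in the authors' deposited tables were copied; in the table against Cre alfp the deposited p-values were unadjusted and were adjusted here. Precision is limited by 2 to 4 libraries per group, and depth per library is known only relative to the shallowest. Alternatives were other pseudocounts, no filter, quantile normalization, median scaling, no minimum difference, a replicate block, fits of 2 groups and leaving out each library. Chromatin data were not used here, because no mm9 gene positions were at hand.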

Additional observations from a re-analysis of the deposited data

Results flagged for a closer look

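In 40 pairs of a member and a group of 4 libraries, 4 libraries stood apart from the other 3 of their group by Dixon's criterion, where chance gives about 1 in 20. Xbp1 was at 167 RPKM in FoxA3 null replicate 2 and at 118 to 120 in the others, which places that library next to the lowest triple null library. Ddit3 was at 11.7 RPKM in FoxA3 null replicate 3 and at 7.14 to 7.58 in the others. Sdf2l1 was at 38.7 RPKM in the library GGCTAC labelled HNF4a null and at 15.6 to 18.6 in the others, and Asns was at 2.28 RPKM in the same library and at 1.11 to 1.18 in the others. In that library the 16 ER chaperones that are not members summed to 3540 RPKM, against 2370 to 2440 in the other libraries labelled HNF4a null.

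The change with FoxA1 and FoxA2 deletion differed between animals without and with FoxA3 for Asns (difference of differences 3.18), Sdf2l1 (2.24) and Hspa5 (1.88). Each had an adjusted p under the threshold in limma's interaction test, and lox held the highest hepatocyte mean of each. For Hspa5, lox replicate 3 (288 RPKM) lay inside the range of FoxA3 null and of triple null. Triple null minus Cre alfp was 0.82 for Hspa5 (adjusted p = 0.0342 in limma), without overlap but under the minimum difference. Sdf2l1 in lox replicate 3 was at 35.4 RPKM, against 30.1 or lower in the other hepatocyte groups. Asns passed the filter on low values only through lox, so it had to differ.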

How the results depend on the processing

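Of 568 member values without 1 library, 517 kept direction and side of the threshold, as did 507 of 528 under the other alternatives. With no filter or no minimum difference the differences themselves could not change, so their direction was fixed in these settings. Without the minimum difference the genes called numbered 3413 (2 members) for triple null minus FoxA3 null, 628 for Cre alfp minus lox, 1658 for the difference between them, 4891 for triple null minus lox, 4743 (3 members) for triple null minus Cre alfp, 4001 for FoxA3 null minus lox and 6569 (6 members) in liver. With a pseudocount of 0.1, FoxA3 null minus lox gave 1303 genes. A fit of lox and Cre alfp alone gave 182 genes, 2 members and 5 lowered ER chaperones.

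Leaving out 1 library gave 866 to 1034 genes for triple null minus FoxA3 null, 177 to 284 for Cre alfp minus lox, 634 to 885 for their difference, 1355 to 1704 for triple null minus lox, 1049 to 1308 for triple null minus Cre alfp, 605 to 1155 for FoxA3 null minus lox and 1590 to 1834 in liver. In the same order the members called were 1 to 1, 3 to 4, 2 to 3, 3 to 4, 1 to 3, 2 to 4 and 1 to 4, and lowered ER chaperones in Cre alfp, a count whose alternatives were added after the data were seen, were 7 to 13. When a lox library was left out Asns was not tested, so the lower counts against lox and for the difference come in part from its absence. Calls that ended without 1 library are named beside their results.

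Values that turned sign were uncalled in every case. Hspa5 in liver was 0.03 with quantile normalization, Herpud1 in triple null minus lox -0.04 and Ddit3 in liver -0.03 with median scaling. Without 1 library, the ranges that crossed 0 were, in triple null minus FoxA3 null, -0.03 to 0.25 (Sdf2l1), -0.18 to 0.10 (Atf4) and -0.07 to 0.11 (Asns). In triple null minus lox they were -0.28 to 0.48 (Herpud1), -0.14 to 0.74 (Atf3) and -0.56 to 0.46 (Ddit3), and in FoxA3 null minus lox -0.04 to 0.36 (Xbp1) and -0.02 to 0.60 (Dnajb9). In Cre alfp minus lox they were -0.58 to 0.17 (Herpud1) and -0.99 to 0.02 (Ddit3), in the difference between deletions -0.56 to 0.21 (Herpud1) and -0.78 to 0.01 (Atf3), and in liver -0.14 to 0.12 (Hspa5) and -0.39 to 0.04 (Sdf2l1). The cause of these turns was not tested. Median scaling moved the share of lower calls from 42.9% to 53.3% for triple null minus lox, from 48.9% to 60.1% for triple null minus Cre alfp, from 49.5% to 62.6% for FoxA3 null minus lox and from 41.0% to 63.2% in liver.

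Same-numbered hepatocyte libraries of different groups did not deviate together: over 21 pairs the correlation of deviations was -0.36 to 0.17, and 0 of 15 libraries were closest to their own number in another group. With the replicate number as a block the genes called were 919, 229, 772, 1513, 1179 and 834 for the 6 hepatocyte comparisons in the order above, and among members 1 call changed, Xbp1 in triple null minus lox (0.99). No paired analysis was possible because the columns carry no numbers in liver. Relative depth limits low values most: under 1 RPKM, as for Asns outside lox, few reads lie behind a value.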
